A study of Mus musculus with 4 samples.

Results

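The subject here is a set of 9 serpin genes: Serpina3f, Serpina3g, Serpina3n, Serpinb1a, Serpinb6a, Serpinb6b, Serpinb8, Serpinb9 and Serpine2. They were taken as the probes that carry these names on a whole-transcriptome mouse array, and they are 9 of the 63 serpin genes with a probe and of 31709 genes or transcripts named in all. Each of the 9 genes has 1 probe, out of 80 serpin probes. The genes were chosen by earlier values of the same contrast, Imatinib against control, so their differences are given as a description with no test. The other 54 serpin genes were tested, but they are what that choice left over.

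The study measured total RNA of spleen cells from 8-week-old female C57BL/6 mice on 1-colour Agilent arrays. All cells were kept for 72 h in conditioning medium to which IL-4 and LPS had been added, a stimulus that drives B cells to divide and switch antibody class. The Imatinib group (2 arrays) also received 10 µM Imatinib, a small-molecule inhibitor of the ABL, KIT and PDGF receptor kinases, and the control group (2 arrays) received none. The series title states an interest in antibody class switching and the deaminase AID. The labels do not say whether the arrays of a group came from separate mice or cultures, so p-values measure the spread between these samples only, which may be technical. Spleen cultures hold several cell types, and in such bulk RNA fewer cells of a type and less RNA per cell cannot be told apart.

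Serpins are protease inhibitors that offer an exposed loop as bait. The protease cleaves the loop, the serpin folds around it, and both end as an inactive covalent complex. Clade A serpins are mostly secreted plasma proteins, while clade B serpins lack a classical secretion signal and stay mostly inside cells, where those of leukocytes guard against granule and lysosomal proteases that leak into the cytosol. In mice the gene of human antichymotrypsin (SERPINA3) has multiplied into the Serpina3 cluster on chromosome 12, and several clade B genes have multiplied on chromosome 13.

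Values below are log2 signals relative to the 75th percentile of each array, so 0 is the level of that percentile. A level is compared only between arrays for the same probe, since 2 probes differ in how brightly they bind. Differences are Imatinib minus control on the log2 scale with the standard error (SE) of the fit across all probes. Of the 9 members, 8 were well above background on all 4 arrays, and Serpina3n was on none. The Imatinib arrays lay below both control arrays for 3 members (Serpina3f, Serpina3g, Serpinb9), above both for 4 (Serpinb1a, Serpinb6a, Serpinb8, Serpine2), and the groups overlapped for Serpinb6b. Among all 20498 genes tested, the Imatinib arrays lay above both control arrays for 34.1% and below both for 38.3%. Since the members were chosen on this contrast, nothing is read from their counts against these shares.

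**Figure D1:**
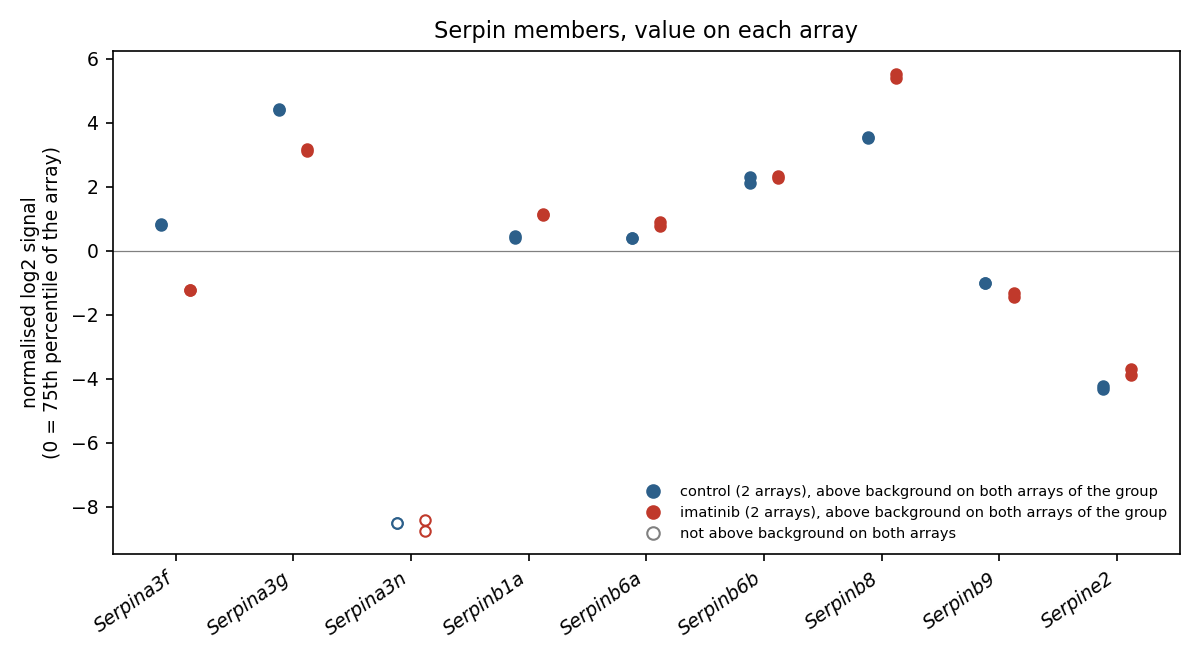
Normalised log2 signal (vertical axis, 0 is the 75th percentile of the array) of the 9 serpin members on each of the 2 control arrays (blue) and 2 Imatinib arrays (red), with open circles for a group not above background on both arrays. Serpina3f lies at 0.82 in control and -1.24 with Imatinib and Serpinb8 at 3.54 and 5.46 on average, the Serpinb6b points overlap, and the Serpina3n points are all open.

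Among the members with lower signal under Imatinib, Serpina3f, a clade A serpin of the Serpina3 cluster, had the largest difference. Its probe read 0.81 and 0.84 on the control arrays and -1.24 on both Imatinib arrays. The groups were far apart and each was tight, at 0.82 ± 0.025 (SD, n = 2) in control and -1.24 ± 0.00085 (SD, n = 2) with Imatinib. The difference was -2.06 (SE 0.058), a 4.17-fold lower signal with Imatinib.

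Serpina3g, also called Spi2A, is a clade A serpin that works in the cytosol and inhibits lysosomal cysteine cathepsins. It read 4.39 and 4.41 in control and 3.17 and 3.11 with Imatinib, again without overlap. The means were 4.4 ± 0.012 (SD, n = 2) and 3.14 ± 0.038 (SD, n = 2), and the difference was -1.26 (SE 0.06), a 2.39-fold lower signal. Serpina3g thus kept a signal well over the array's 75th percentile in both groups.

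Serpina3n, a secreted inhibitor of granzyme B and other serine proteases, was not well above background on any array. Its probe read -8.51 and -8.52 in control and -8.42 and -8.78 with Imatinib. No fold is given for it.

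Serpina3f, Serpina3g, Serpina3h and Serpina3i follow each other as serpins number 20 to 23 of 28 on chromosome 12 in the RefSeq gene table, and Serpina3n is number 28. RefSeq lists Serpina3h as a transcribed pseudogene. Serpina3h and Serpina3i (Gm6930 in the files) are no members, and limma's moderated test placed both lower with Imatinib. A Serpina3i probe read -2.20 and -1.72 in control and -3.88 and -3.91 with Imatinib, a difference of -1.93 (SE 0.18, adjusted p = 0.0045), or -1.16 with normexp correction. Here and below, normexp background correction adds 50 signal units to each spot before the log, which by itself shrinks the differences of dim probes. The other Serpina3i probe differed by -0.55 (SE 0.15, adjusted p = 0.049) and was above background on 3 of 4 arrays. A Serpina3h probe read -0.58 and -0.69 in control and -2.24 and -2.26 with Imatinib, a difference of -1.62 (SE 0.069, adjusted p = 0.001).

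The Serpina3h probes disagreed. The probe named above gave a fall, while the other read -1.85 and -1.84 in control and -1.94 and -1.69 with Imatinib, a difference of 0.03 (SE 0.1, adjusted p = 0.83). That other Serpina3h probe differs from that other Serpina3i probe by 8 edits (bases changed, added or lost, not counting an overhang of the probe compared with) and shares a run of 22 bases with it, so these 2 probes may not separate the genes. The probes that gave the large differences are unlike each other. Those of Serpina3f, Serpina3g, Serpina3h and Serpina3i differ pairwise by 28 to 31 edits, with shared runs of 5 to 7 bases, and so read different stretches. Binding of a probe to transcripts of the other copies was not analysed here.

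The rest of the cluster did not share the pattern or was too dim to read. Serpina3b read -2.33 and -2.34 in control and -2.16 and -2.21 with Imatinib, a difference of 0.15 (SE 0.058) that did not pass (adjusted p = 0.11). Serpina3a, Serpina3c, Serpina3j, Serpina3k and Serpina3m were not above background on both arrays of either group.

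**Figure D2:**
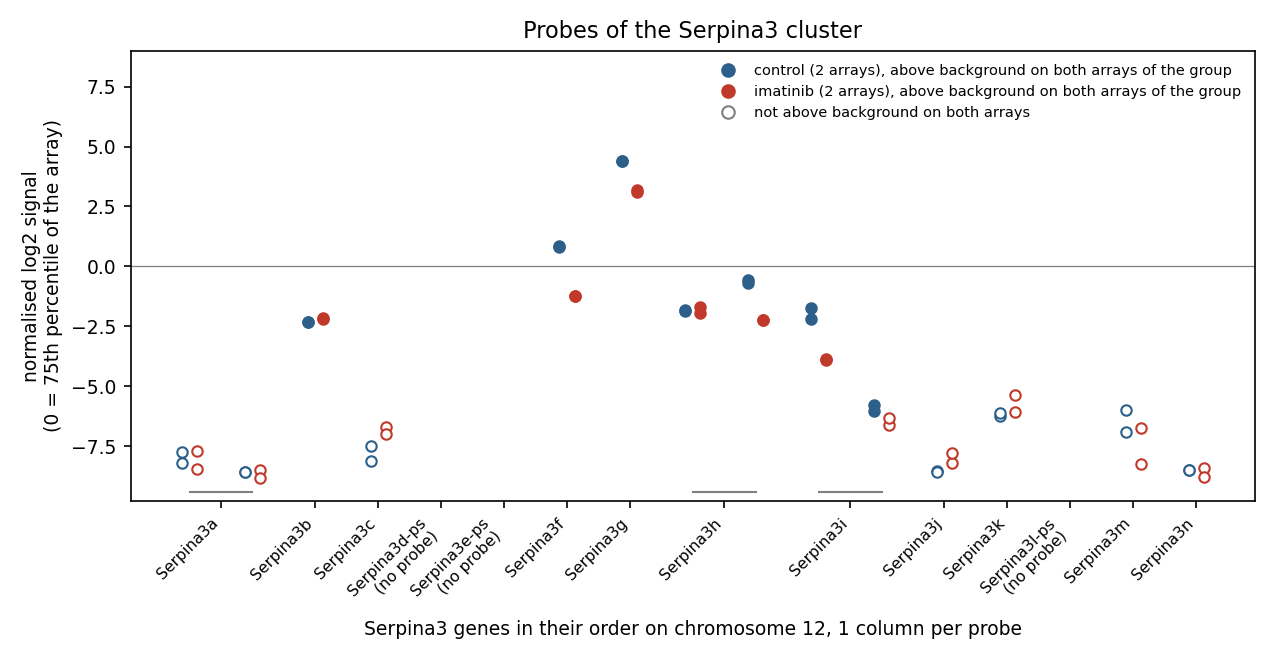
Normalised log2 signal of every probe of the Serpina3 genes on the 2 control (blue) and 2 Imatinib arrays (red), with genes in their order on chromosome 12 and a line under the columns of genes with 2 probes. Open circles mark a group not above background on both arrays. Red lies below blue for Serpina3f, Serpina3g, 1 Serpina3h probe and both Serpina3i probes, while the other Serpina3h probe overlaps.

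The promoters of Serpina3f, Serpina3g and Serpina3i are shown because these neighbours were lower together with Imatinib. They come from the RefSeq promoter table (GRCm38.p6), each from 250 bases before to 50 after the start site, on the plus strand. Capitals mark TTCNNNGAA, the letters of the palindromic site that STAT factors bind. The motif is its own reverse complement, so a search covers both strands at once.
Serpina3f, chr12:104214294-104214593: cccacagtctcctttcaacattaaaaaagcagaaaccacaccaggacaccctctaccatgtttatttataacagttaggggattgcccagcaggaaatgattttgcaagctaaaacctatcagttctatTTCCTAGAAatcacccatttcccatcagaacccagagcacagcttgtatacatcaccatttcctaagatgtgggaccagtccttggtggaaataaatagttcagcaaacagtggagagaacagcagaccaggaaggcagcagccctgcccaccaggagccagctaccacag
Serpina3g, chr12:104235897-104236196: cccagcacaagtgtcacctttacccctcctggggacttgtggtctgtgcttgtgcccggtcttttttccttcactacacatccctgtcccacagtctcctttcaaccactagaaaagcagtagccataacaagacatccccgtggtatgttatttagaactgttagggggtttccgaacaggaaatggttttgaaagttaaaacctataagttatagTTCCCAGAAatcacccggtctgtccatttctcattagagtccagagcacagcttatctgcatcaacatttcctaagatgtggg
Serpina3i, chr12:104262872-104263171: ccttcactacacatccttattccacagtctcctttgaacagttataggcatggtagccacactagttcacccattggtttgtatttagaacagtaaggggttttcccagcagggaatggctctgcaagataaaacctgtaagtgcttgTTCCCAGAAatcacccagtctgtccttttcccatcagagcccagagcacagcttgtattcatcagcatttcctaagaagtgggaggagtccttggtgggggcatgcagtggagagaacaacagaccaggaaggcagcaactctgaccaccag

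Each of these 3 promoters held 1 match, which began at position -121 in Serpina3f, -33 in Serpina3g and -102 in Serpina3i, counted from the start site. The 9 letters of the match were followed in all 3 promoters by the same 7 letters, atcaccc. Among 32851 promoters of the table, 2726 (8.3%) held the motif. The 3 promoters belong to copies within the same cluster and were picked because their genes were lower. Their matches are thus not counted as separate draws, and nothing is read from them against that share. The Serpina3f and Serpina3i promoters were 66.0% identical end to end, and the Serpina3n promoter, 62.0% identical to each of them, held no match. The table lists a further Serpina3f start site downstream, whose window holds the same match at position -210 and was 43.7% identical to the Serpina3i promoter. The Serpina3g promoter was 43.3% and 45% identical to the Serpina3f windows and 44.7% to that of Serpina3i. Those shares are no higher than the 48.3% between a Serpina3f and a Serpinb6a promoter. They compare whole windows, so start sites at different places in like sequence lower them. The match lies at -121 in Serpina3f and -33 in Serpina3g, and windows of both genes also hold the run catttcctaagatgtggg. How alike the promoters are once lined up was not analysed here. A match describes letters only, and binding was not measured in this study. Of the other members, the promoters of Serpinb6b, Serpinb8, Serpinb9 and Serpine2 held no match in this window. Of the 2 Serpinb6a promoters in the table, 1 held no match and the other held 2. Serpinb1a and Serpina3h were not analysed here for promoters.

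Among the clade B members, Serpinb8, known to inhibit the proprotein convertase furin, read 3.52 and 3.56 in control and 5.53 and 5.40 with Imatinib. The groups did not overlap, at 3.54 ± 0.032 (SD, n = 2) and 5.46 ± 0.092 (SD, n = 2). The difference was 1.93 (SE 0.074), a 3.8-fold higher signal. This value is uncertain for Serpinb8, because its 60-base probe is mostly a TG repeat. Bases 24 to 53 of the probe are shown with the longest unbroken run, 14 bases, in capitals.
Serpinb8 probe: tgtgtgtaTGTGTGTGTGTGTGcctctgtg

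In the whole probe 38 of 60 bases lie in TG or GT repeats. The array has 108 other tested probes with a TG run of at least 12 bases, and limma's test called 104 of them higher with Imatinib and 0 lower (Benjamini-Hochberg adjusted over all probes). Their median difference was 1.88, with quartiles of 1.53 and 2.03, and the Serpinb8 difference of 1.93 lies between those quartiles. Among the 47 probes with a run of 12 to 16 bases, 43 were higher and the median was 1.9. The part of the repeat in the Serpinb8 value was not tested, and the array holds no Serpinb8 probe without it.

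Serpinb1a inhibits neutrophil elastase, proteinase 3 and cathepsin G. It read 0.44 and 0.39 in control and 1.13 and 1.11 with Imatinib. The groups, at 0.42 ± 0.036 (SD, n = 2) and 1.12 ± 0.015 (SD, n = 2), did not overlap. The difference was 0.70 (SE 0.059), a 1.63-fold higher signal.

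Serpinb6a, the mouse counterpart of human SERPINB6, inhibits cathepsin G. It read 0.40 on both control arrays and 0.88 and 0.76 with Imatinib, with no overlap. The difference was 0.42 (SE 0.068), a 1.34-fold higher signal. The probe closely resembles a probe of the neighbouring Serpinb6c, from which it is offset by 1 base and differs by 4 substitutions, all in the stretch below (bases 24 to 53 and 25 to 54 of the probes, differing letters in capitals).
Serpinb6a probe: atgGcaATtatgaaataaagggcttTatgg
Serpinb6c probe: atgAcaGCtatgaaataaagggcttAatgg

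That Serpinb6c probe read -1.75 and -1.82 in control and -1.39 and -1.35 with Imatinib, a difference of 0.41. The other Serpinb6c probe covers much of the same stretch, shifted along it, and so is also like the Serpinb6a probe. It too differed by 0.41 (SE 0.061, limma adjusted p = 0.012), which is no separate reading of Serpinb6c. How much of each transcript the like probes of Serpinb6a and Serpinb6c pick up from the other was not tested. The remaining members' probes lay at least 17 edits from every other probe on the array, except that of Serpinb8, which lay 12 edits from a Zcchc9 probe.

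Serpinb6b, an inhibitor of granzyme A in mice, read 2.11 and 2.30 in control and 2.28 and 2.32 with Imatinib. An Imatinib array lay below a control array, so the groups overlapped, and the difference was 0.094 (SE 0.09). Its sign was not stable, since it turned to -0.078 with median centring, to -0.17 with spike-in scaling and to -0.0043 without control replicate 1.

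Serpinb9 inhibits granzyme B and shields cytotoxic and antigen-presenting cells from it. It was the clade B member with lower signal under Imatinib. The probe read -1.0 and -1.01 in control and -1.34 and -1.46 with Imatinib, a difference of -0.39 (SE 0.07) or 1.31-fold. Of its relatives on chromosome 13, Serpinb9e differed by -0.19 (SE 0.15, adjusted p = 0.36), and Serpinb9b, Serpinb9c, Serpinb9d, Serpinb9f and Serpinb9g were not above background on both arrays of either group.

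Serpine2, or protease nexin-1, is a secreted inhibitor of thrombin and plasminogen activators. It was dim on every array, at -4.32 and -4.22 in control and -3.69 and -3.88 with Imatinib. The groups did not overlap, and the difference was 0.48 (SE 0.096), a 1.4-fold higher signal. With normexp background correction it was 0.27.

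The size of the smaller differences depended on how the arrays were scaled. Scaling to the 75th percentile put the median difference of all genes at -0.0039. Centring each array on its median put it at -0.18, and scaling to the spike-in controls at -0.27. Differences given for those settings do not have that median taken off, and are to be read against it. Of genes called, 45.1% were higher as reported, 27.1% with median centring and 19.9% with spike-in scaling. With spike-in scaling Serpinb1a differed by 0.44, Serpinb6a by 0.16, Serpine2 by 0.22 and Serpinb9 by -0.66. Serpinb6a differed by 0.25 and Serpine2 by 0.31 with median centring. Serpina3f stayed between -2.33 and -1.88 and Serpina3g between -1.53 and -1.15 over the 14 alternatives run.

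**Figure D3:**
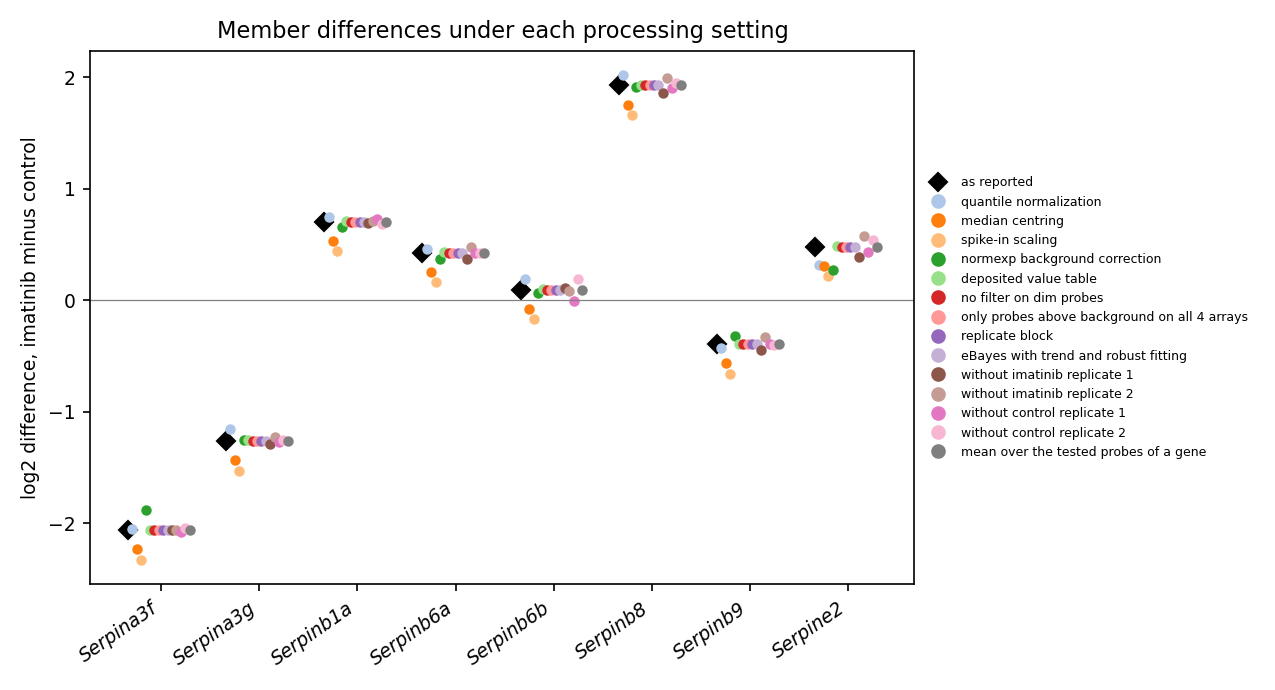
Log2 difference, Imatinib minus control, of the 8 members above background, as reported (black diamonds) and under 14 alternative settings (coloured points). Serpinb6b has points on both sides of 0, from -0.17 to 0.19, and for each other member all points lie on 1 side.

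Of the other 54 serpin genes, 34 were not above background on both arrays of a group and 20 were tested. Limma's test called 5 of these higher and 3 lower with Imatinib, and 12 did not pass. Over the whole array 42.4% of 25373 probes were called. By gene, 18.8% of those tested were called higher and 22.8% lower, against 25% and 15% of the tested serpins, so the serpin shares are near the background. The median difference of the 20 genes was 0.17 as reported, but -0.0038 with median centring and -0.098 with spike-in scaling, where 2 genes were called higher. The median of all genes moved too, from -0.0039 as reported to -0.18 with median centring and -0.27 with spike-in scaling.

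Serpinb2, the urokinase inhibitor PAI-2, was above background only with Imatinib. It read -6.66 and -6.87 in control and -5.03 and -4.99 with Imatinib, at least 2.37-fold higher. Serpinb2 is counted among the serpins called higher, but it passed the filter only through the Imatinib arrays. Its p-value (limma adjusted p = 0.0014) sets signal against control background readings. The bound sets the Imatinib mean against the lowest signal among probes above background on each control array, or the probe's own where higher. With normexp correction the difference was 0.44 and still passed. The 50 signal units which that correction adds shrink a dim probe's difference, so 0.44 is not comparable with the bound.

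The remaining calls were smaller or less stable. Serpinh1 (HSP47), a collagen chaperone that inhibits no protease, was higher by 1.00 (SE 0.2, adjusted p = 0.024), or by 0.29 with normexp correction. Serpinc1, antithrombin, was higher by 0.46 (SE 0.061, adjusted p = 0.0093), and Serpinf2, the plasmin inhibitor antiplasmin, by 0.40 (SE 0.097, adjusted p = 0.039) or 0.20 with normexp correction. Serpini1 (neuroserpin), which inhibits tissue plasminogen activator, was lower by -0.26 (SE 0.066, adjusted p = 0.041), and its other probe by -0.40 (adjusted p = 0.034). The call was lost in 4 of 14 alternatives for Serpinh1 and Serpinc1, 5 for Serpinb6c, 9 for Serpinf2 and 6 for Serpini1, and in none for Serpina3h and Serpina3i. Without either Imatinib replicate, none of Serpinh1, Serpinc1, Serpinb6c, Serpinf2 and Serpini1 passed.

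**Figure D4:**
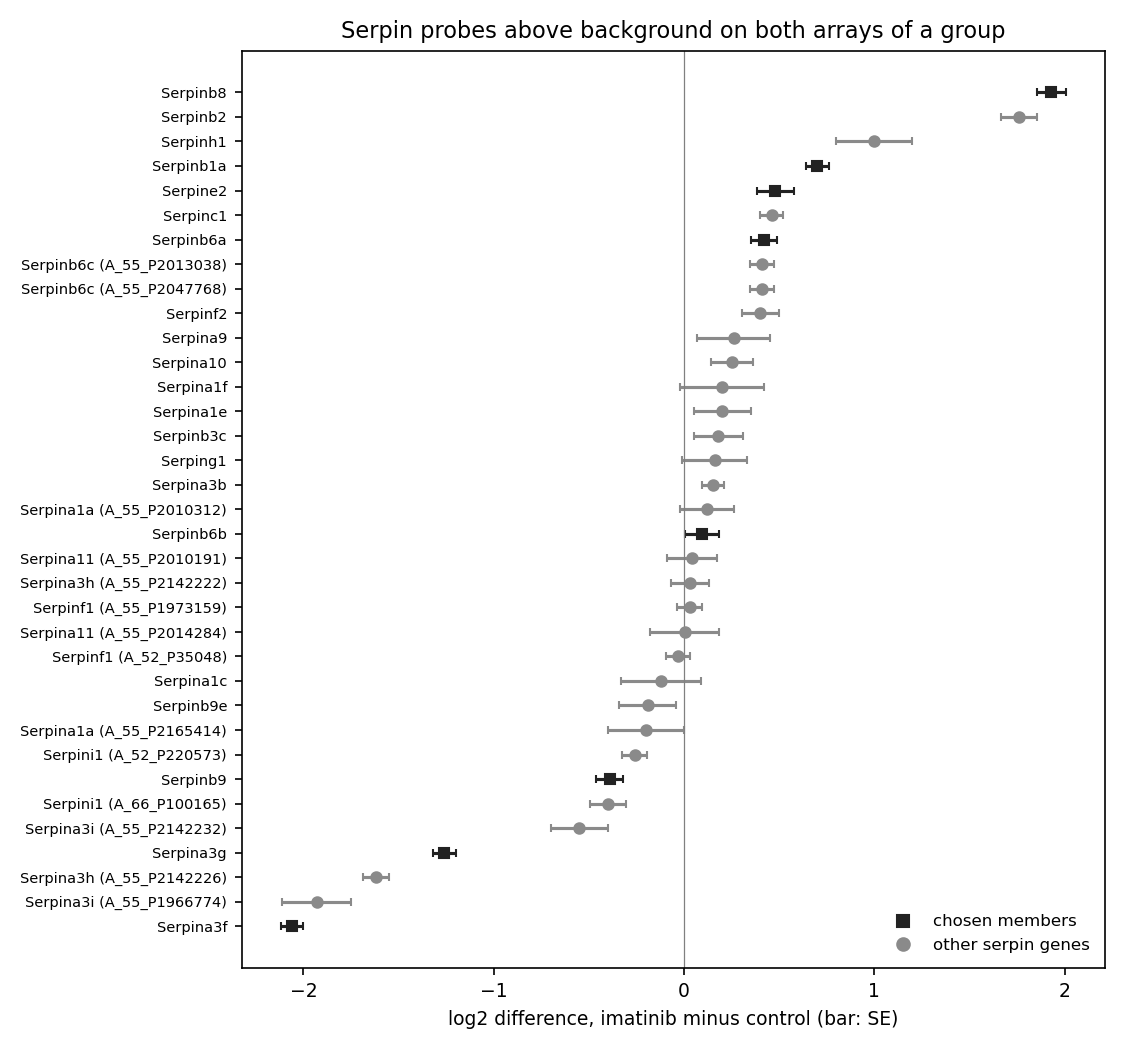
Log2 difference, Imatinib minus control, with its SE as a bar, for every serpin probe above background on both arrays of a group. The members (black squares) range from -2.06 for Serpina3f to 1.93 for Serpinb8, with most other serpin probes (grey circles) close to 0 and the Serpinb2 probe, 1 Serpina3h probe and 1 Serpina3i probe towards the ends. The Serpinb2 point is a fitted value of a gene on no control array above background.

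The proteases that the members inhibit, or that share their compartments, were read from a list of 39 genes. Of these 32 were tested, 17 were higher with Imatinib, 4 were lower and 11 did not pass (53.1% higher and 12.5% lower, against 18.8% and 22.8% of all genes). The higher ones include Mcpt8, which was on no control array above background and passed the filter only through the Imatinib arrays. The list was drawn up with earlier results of these data known, so nothing is read from its shares against those of all genes. The median difference of the 32 was 0.36, or 0.095 with spike-in scaling, where 12 were higher and 9 lower. Spike-in scaling also moved the median of all genes, from -0.0039 to -0.27, with 2300 genes called higher and 9231 lower. Of the proteases detected on every array, Ctsw and Ctsl rose most, with Ctsw, a cathepsin of cytotoxic lymphocytes, at 1.81 (SE 0.077, adjusted p = 0.001) and the lysosomal Ctsl at 1.55 (SE 0.068, adjusted p = 0.001). Furin, the target of Serpinb8, rose from -0.26 and -0.40 to 0.91 and 0.92, by 1.25 (SE 0.075, adjusted p = 0.0019). The mast cell tryptase Tpsb2 rose by 1.16 (SE 0.069, adjusted p = 0.0019), or by 0.59 as the mean over its tested probes. Ctsg, the cathepsin G that Serpinb1a and Serpinb6a inhibit, rose by 0.99 (SE 0.21, adjusted p = 0.027), a call lost in 4 of 14 alternatives, and by 0.42 with normexp correction.

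Among the proteases that fell were the granzyme Gzmk by -0.82 (SE 0.19, adjusted p = 0.031), the apoptotic initiator Casp8 by -0.49 (SE 0.076, adjusted p = 0.013) and the membrane protease St14 by -0.48 (SE 0.058, adjusted p = 0.0077). The call was lost in 4 of 14 alternatives for Gzmk, 3 for Casp8 and 2 for St14. Further targets are named because they pair with a member, and were picked after their values were seen. Gzmb, the target of Serpinb9, read -2.73 and -2.67 in control and -2.13 and -2.07 with Imatinib, a rise of 0.60 (SE 0.063, adjusted p = 0.0058), where the Serpinb9 signal was lower. Gzma, the target of Serpinb6b, rose by 0.49 (SE 0.079, adjusted p = 0.014), a call lost in 5 of 14 alternatives, and Ctsb, a target of Serpina3g, by 0.74 (SE 0.067, adjusted p = 0.0044). Elane, the elastase that Serpinb1a inhibits, differed by 0.10 (SE 0.13) and did not pass (adjusted p = 0.58). Thrombin (F2) and the plasminogen activators Plau and Plat, targets of Serpine2, were not above background on both arrays of either group.

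Protease inhibitors outside the serpin family were read from a list of 34 genes, of which 25 were tested. Limma's test called 10 higher (40%) and 3 lower (12%), against 18.8% and 22.8% of all genes, and 12 did not pass. This list too was drawn up with earlier results of these data known, so nothing is read from these shares. The median difference was 0.29, or 0.021 with spike-in scaling, where 6 were higher and 5 lower. With that scaling the median of all genes moved as well, from -0.0039 to -0.27. Cst7, the leukocyte cystatin F that acts on cathepsins in granules and lysosomes, read 1.29 and 1.24 in control and 3.96 and 4.03 with Imatinib, a rise of 2.73 (SE 0.064, adjusted p = 0.00068). Rises were also seen for the metalloprotease inhibitors Timp2 (2.85, adjusted p = 0.0026) and Timp1 (2.35, adjusted p = 0.0026), which with normexp correction came to 1.29 and 1.05. The cystatin Cst6 rose by 2.02 (adjusted p = 0.0012), or by 1.31 with normexp correction, and Wfdc17, named Gm11428 in the files, by 1.74 (adjusted p = 0.0012). The inhibitor of apoptosis genes Birc2 (-1.01, adjusted p = 0.0031), Birc3 (-0.40, adjusted p = 0.015) and Birc5 (-0.40, adjusted p = 0.018) fell. The call was lost in 3 of 14 alternatives for Birc3 and in 4 for Birc5. Wfdc18, picked after its value was seen, was called higher but was above background on only 1 of the control arrays, so its difference is not given as a fold.

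**Figure D5:**
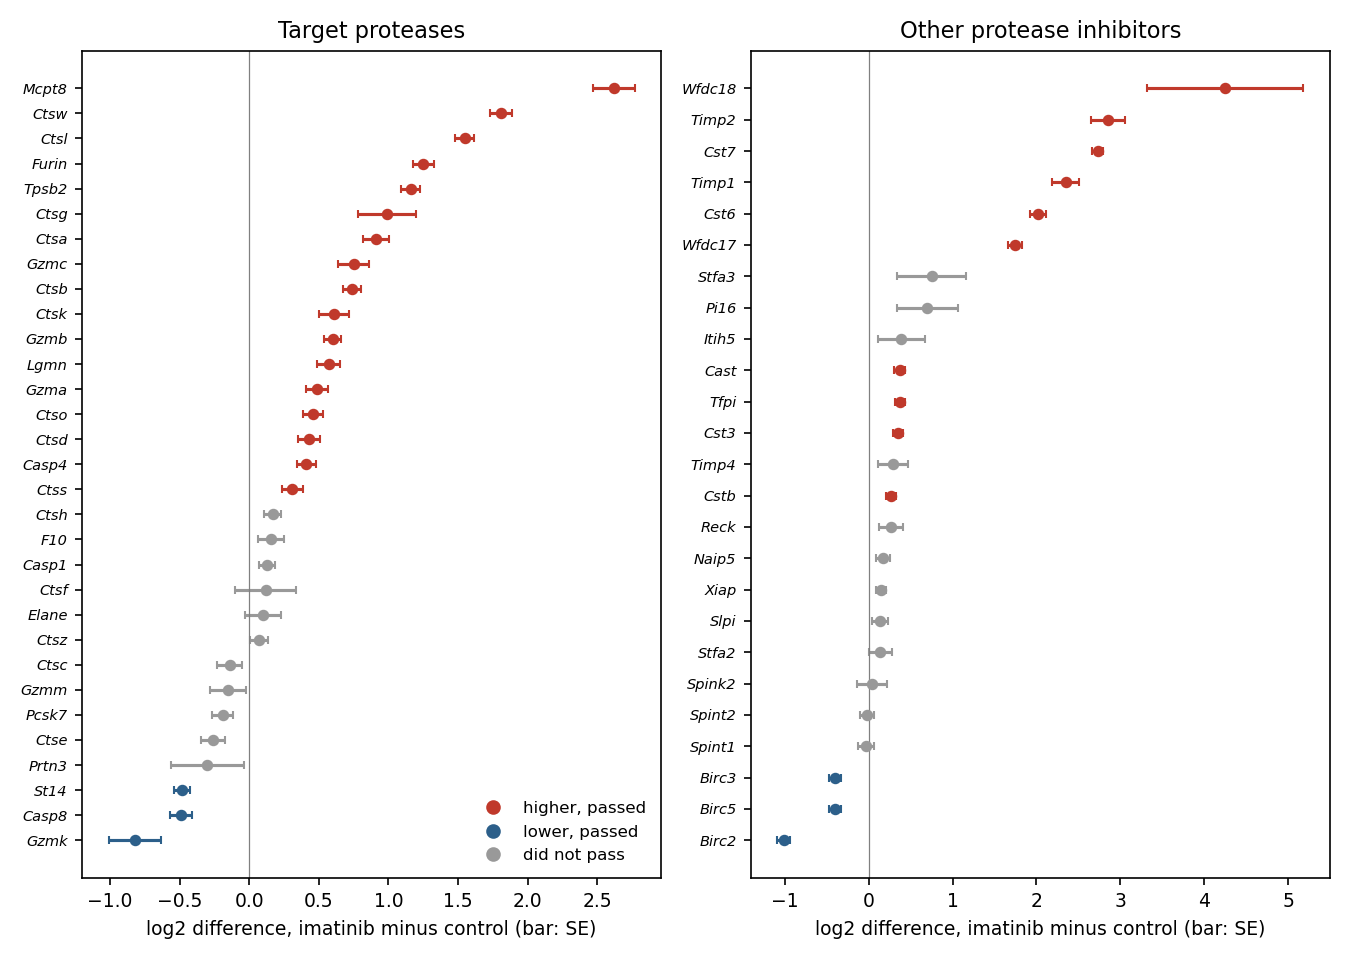
Log2 difference, Imatinib minus control, with its SE as a bar, for tested genes of the protease list (left) and of the other inhibitors (right, 25 genes), coloured by limma's call at an adjusted p of 0.05. Cst7, Timp1 and Timp2 lie far to the right, Birc2 and Gzmk lie furthest left, and the points of Mcpt8 and Wfdc18 are fitted values of genes not above background on both control arrays.

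Markers of the cell types a spleen culture can hold differed between the groups as well. Their sums below are linear signals in multiples of the array's 75th percentile, over the tested markers. The counts of calls stand beside 18.8% higher and 22.8% lower among all genes tested, and each list holds few markers. All 8 B cell markers were detected on every array, 1 was higher and 5 lower with Imatinib by limma's test, and they summed to 261 and 271 against 314 and 293 in control. The B cell sums are mostly Cd79b, which did not pass (limma adjusted p = 0.86). With spike-in scaling, where the median of all genes was -0.27, 7 B cell markers were lower. Of 8 T cell markers 6 were higher and 0 lower, with sums of 17.7 and 18.1 against 8.32 and 7.22. Cd4 (limma adjusted p = 0.74) and Cd247 (limma adjusted p = 0.17) did not pass. Of 5 plasma cell markers 3 were higher and 1 lower (182 and 171 against 169 and 167), and with spike-in scaling 0 were higher and 2 lower. The plasma cell sums are mostly Xbp1, which was among the higher ones as reported. Of 6 NK cell markers 3 were tested, 1 higher and 1 lower (0.863 and 0.897 against 0.705 and 0.684), and Ncr1, Klrb1c and Klrk1 were not above background.

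Of 8 macrophage markers 5 were tested, 2 higher and 0 lower (5.6 and 5.89 against 3.75 and 3.67), with C1qa, C1qc and Mertk not above background. Of 8 neutrophil markers 6 were tested, 4 higher and 1 lower, with Ly6g the lower one and with lower sums (2.92 and 3.24 against 3.83 and 3.56). Of 6 mast cell and basophil markers 2 were tested, Mcpt8 and Cpa3, which passed the filter only through the Imatinib arrays and were on no control array above background. They summed to 0.0353 and 0.04 with Imatinib, and the control sums of 0.0115 and 0.0111 are background readings. Mcpt8 was at least 1.3-fold and Cpa3 at least 1.56-fold higher, while Fcer1a, Ms4a2, Mcpt4 and Cma1 were not above background on both arrays of either group. Of 6 dendritic cell markers 4 were tested, 1 higher and 1 lower (113 and 116 against 103 and 89.2). The higher one, Itgax, passed the filter only through the Imatinib arrays and was at least 2.51-fold higher. These sums are mostly Siglech, which did not pass (limma adjusted p = 0.084). Of 4 platelet markers 2 were tested, 1 higher (2.6 and 2.68 against 0.144 and 0.145). The platelet sums are mostly the higher one, Pf4. Itga2b did not pass (limma adjusted p = 0.12), and Gp9 and Ppbp were not above background on any array. Of 4 erythroid markers 2 were tested, Hba-a1, which was higher, and Alas2, which did not pass (0.71 and 0.777 against 0.486 and 0.482). Alas2 also passed the filter only through the Imatinib arrays. Any call of Itgax or Alas2 thus sets Imatinib signal against control background readings. Of 6 stromal and endothelial markers 3 were tested, 1 lower (5.19 and 5.63 against 5.76 and 4.49). The stromal and endothelial sums are mostly Kdr, which did not pass (limma adjusted p = 0.56). The calls of several of these lists depended on single arrays. Without Imatinib 1 or without Imatinib 2 only 2 B cell markers were lower. With any array left out, 0 or 1 plasma cell marker and 1 macrophage marker were higher. The NK cell marker called lower was lost without Imatinib 1, Imatinib 2 or control 1, the neutrophil one without Imatinib 1, and the stromal and endothelial one without control 2. In turn 2 markers were called higher for dendritic cells and for platelets without control 1 and for erythroid cells without Imatinib 1, and 2 stromal and endothelial markers lower without Imatinib 2. The T cell count stayed at 6 whichever array was left out. With a replicate block 4 B cell markers were lower, no NK cell marker was, and 1 plasma cell and 1 macrophage marker were higher. The part of the mix of cells in the serpin, protease and inhibitor values was not tested.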

How the data were processed

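The 4 arrays, 2 with Imatinib and 2 without, held 43020 spots and 39429 probes. Per the file headers, the deposited scanner files hold processed signal intensity from Agilent Feature Extraction 9.1.3.1, and the deposited value table, which the authors made with GeneSpringGX per the labels, holds log2 values. That table matched log2 processed signal minus a constant within 0.01 for at least 99.88% of probes on each array. Its column medians were -3.99, -3.92, -4.10 and -4.17. Here spots of a probe were averaged and log2 intensity was set relative to the array's 75th percentile (629 to 782 in signal units, with 25017 to 26758 probes above background and 0 saturated spots). Precision is limited by how few arrays there are. Of the probes, 26055 were named by accession, 3195 by symbol and 930 by synonym from RefSeq GRCm38.p6, and 9249 kept the name of the file.

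Probes above background on both arrays of a group were fitted with limma 3.58.1 in R 4.3.3 (2 residual degrees of freedom), with Benjamini-Hochberg adjustment over all probes and a threshold of 0.05. A gene took its probe with the highest mean signal. The fit was tested on simulated data. The smallest two-sided p that exact permutation of the 4 arrays allows is 0.333. Same-numbered arrays shared only a number, and all 4 lay on 1 slide. The members and lists were chosen with earlier results of these data known. Named were all members, every other serpin past the threshold or with disagreeing probes, and up to 5 genes per direction from each other list, those above background on all arrays first. An item of the protease list is not reported here. Genes of like pattern were not searched, since 4 arrays in 2 groups only restate the group difference.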

Additional observations from a re-analysis of the deposited data

How the results depend on the processing

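The differences of the 8 measured members kept their sign under all 14 alternatives, save Serpinb6b, which turned to -0.078 with median centring and -0.17 with spike-in scaling and ran from -0.0043 to 0.19 with an array left out. No alternative was added later. Serpins called higher (5 as reported) were 3 with quantile normalization, 2 with median centring, 2 with spike-in scaling and 3 without the filter on dim probes. Proteases called higher (17) were 10 without the filter, and those lower (4) were 9 with spike-in scaling and 2 without the filter. Other inhibitors called higher (10) were 6 with median centring, 6 with spike-in scaling and 5 without the filter, and those lower (3) were 5 with spike-in scaling and 1 without the filter. Genes called higher (3849) were 2300 with spike-in scaling and 2308 without the filter. Genes called lower (4679) were 7241 with median centring, 9231 with spike-in scaling, 1833 without the filter and 3054 with a replicate block. Probes called (10753) were 5186 without the filter, which fits more probes. Of genes called, 55.7% were higher without the filter.

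With an array left out, where the lone array is assumed to vary like the other group, counts ran from 1 to 5 (serpins higher), 9 to 15 and 1 to 3 (proteases higher and lower), 5 to 12 and 1 to 3 (inhibitors), 1960 to 3747 and 1310 to 3407 (genes) and 4128 to 8985 (probes). The lowest counts came without an Imatinib array: without Imatinib 1 the serpins were 1, the proteases 11 and 1 and the inhibitors 5 and 1, and without Imatinib 2 they were 1, 9 and 2, and 5 and 1. Fewer samples enter these fits, and 60.9% and 59.3% of calls were then higher. Without control 2, 3107 genes were called lower. Same-numbered arrays deviated together with a correlation of -0.069. The replicate block ended 1 call among the other serpins, Serpini1 (adjusted p = 0.095), 2 among the proteases, Ctsg (0.062) and Ctss (0.09), and 3 among the inhibitors, Cast (0.051), Cst3 (0.053) and Cstb (0.08). For all other changes the cause was not tested. With 2 arrays a group, Serpina3n and 34 other serpins under background could not be compared.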

Other observations

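Further lysosomal proteases of the list are given here, picked after their values were seen. Ctsa (0.91, adjusted p = 0.0055), Ctsk (0.61, adjusted p = 0.017), Lgmn (0.57, adjusted p = 0.011), Ctso (0.46, adjusted p = 0.013), Ctsd (0.43, adjusted p = 0.017) and Ctss (0.31, adjusted p = 0.037) were higher with Imatinib by limma's test, each above background on all 4 arrays. Ctsh (0.17, adjusted p = 0.09), Ctsz (0.071, adjusted p = 0.42), Ctsf (0.12, adjusted p = 0.69), Ctsc (-0.14, adjusted p = 0.27) and Ctse (-0.26, adjusted p = 0.074) did not pass. The Ctsa call held in all 14 alternatives, while those of Ctsk and Lgmn were lost in 3, Ctso in 4, Ctsd in 6 and Ctss in 8. Among the inflammatory caspases Casp4 was higher by 0.41 (adjusted p = 0.015), lost in 6 alternatives, and Casp1 differed by 0.13 (adjusted p = 0.14). The cytosolic protease inhibitors Cast (0.37, adjusted p = 0.015), which blocks calpains, and Cstb (0.27, adjusted p = 0.027), which blocks leaked cathepsins, were higher too, as was the secreted cystatin Cst3 (0.35, adjusted p = 0.016). These 3 calls were lost in 7 (Cast), 8 (Cstb) and 7 (Cst3) of 14 alternatives, among them median centring, spike-in scaling and the replicate block.

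Serpinb6e was not above background on any array and was not tested. Its probe read -6.47 and -6.44 with Imatinib and -8.34 and -8.40 in control, all background readings, from which no difference is read. The probe also shares a run of 21 bases with a Serpinb6c probe.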
